A study of Rattus norvegicus with 13 samples.

Results

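The orexin and melanin-concentrating hormone (MCH) systems are here 5 genes, 2 peptide precursors and 3 receptors, taken by name from a table of 17366 rows. Hcrt (hypocretin) encodes prepro-orexin and Pmch encodes pro-MCH. Hcrtr1 and Hcrtr2 encode the orexin receptors, and Mchr1 encodes the MCH receptor. All 5 were found as single rows, and all 5 passed the filter on low values (a mean of at least 0.5 FPKM over all rats).

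Whole hypothalamus of Rattus norvegicus was profiled by mRNA sequencing in 6 rats fed a diet of 55% fructose and in 7 rats fed standard chow (0.30% fructose). Feeding started at postnatal day 25 in pair-housed animals. The rats were fasted overnight at day 79 and killed at day 80, 1 h after intraperitoneal glucose (2 g/kg) or saline. The labels give no strain or sex, and they do not say which of these rats had glucose. Rats are numbered within a diet in accession order, so fructose rat 1 and chow rat 1 are unrelated.

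Orexin and MCH neurons are separate, intermingled populations of the lateral hypothalamus that project through much of the brain. Orexins promote wakefulness, arousal and food seeking through receptors that couple mainly to the Gq class of G proteins. Loss of orexin neurons is known as the cause of human narcolepsy with cataplexy. MCH promotes feeding and is active in sleep, and its receptor, which couples to Gi and Gq proteins, resides on the primary cilium of neurons.

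The stretch of 250 bases before the transcription start is shown for the orexin precursor, for Pdyn and Nts, a pair of peptide genes whose levels followed it from rat to rat, and for both orexin receptors. Sequences are from RefSeq on build GRCr8, written 5′ to 3′ on the gene's strand, which is the minus strand in each case. RefSeq windows were matched for 3 of the 5 members. Capitals mark TATAAA, the usual TATA box, and TGACG, the core of the cyclic AMP response element (CGTCA where it lies on the opposite strand).
Hcrt (chr10:86191525-86191774): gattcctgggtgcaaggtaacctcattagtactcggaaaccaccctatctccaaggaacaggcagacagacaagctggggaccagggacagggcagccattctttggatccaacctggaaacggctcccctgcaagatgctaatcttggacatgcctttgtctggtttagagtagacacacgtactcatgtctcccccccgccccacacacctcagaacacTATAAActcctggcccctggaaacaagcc
Pdyn (chr3:137366504-137366753): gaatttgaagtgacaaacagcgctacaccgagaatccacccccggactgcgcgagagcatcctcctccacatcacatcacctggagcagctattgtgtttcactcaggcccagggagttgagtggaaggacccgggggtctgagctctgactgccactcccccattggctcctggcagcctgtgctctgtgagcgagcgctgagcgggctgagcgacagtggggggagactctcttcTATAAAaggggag
Nts (chr7:39460889-39461138): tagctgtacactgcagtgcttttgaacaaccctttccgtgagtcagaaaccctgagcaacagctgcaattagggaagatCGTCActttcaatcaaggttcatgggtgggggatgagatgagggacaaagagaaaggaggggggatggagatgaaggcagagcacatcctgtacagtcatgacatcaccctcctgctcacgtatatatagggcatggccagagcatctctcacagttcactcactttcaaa
Hcrtr1 (chr5:147770851-147771100): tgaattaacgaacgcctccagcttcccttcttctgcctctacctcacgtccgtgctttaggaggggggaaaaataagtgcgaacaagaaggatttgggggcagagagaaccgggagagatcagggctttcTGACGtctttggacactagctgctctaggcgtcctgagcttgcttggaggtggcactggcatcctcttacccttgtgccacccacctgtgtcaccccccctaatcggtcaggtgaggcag
Hcrtr2 (chr8:85986406-85986655): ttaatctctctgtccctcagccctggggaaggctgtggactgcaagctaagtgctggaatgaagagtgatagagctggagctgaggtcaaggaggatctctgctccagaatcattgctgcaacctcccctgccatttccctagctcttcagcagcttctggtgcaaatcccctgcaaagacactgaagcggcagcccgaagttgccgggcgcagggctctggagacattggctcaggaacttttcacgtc

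TATAAA began at position -29 of Hcrt and at position -13 of Pdyn, counted back from the start site, and was not among the letters of the other 3 windows. Read on both strands, it was held by 12.9% of the 33469 RefSeq windows of this length. TGACG lay in the windows of Hcrtr1 and Nts, and was held by 18.2% of all windows. TATAAA and TGACG share no position in the 5 windows.

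The levels of the 5 transcripts kept the same order in 13 of 13 rats, with Pmch highest, then Hcrt, Mchr1, Hcrtr1 and Hcrtr2. FPKM is scaled to transcript length, so these levels can be set side by side. By its mean over all rats Pmch ranked 4 among the 17366 rows and Hcrt ranked 113, whereas Mchr1, Hcrtr1 and Hcrtr2 ranked 6988, 9007 and 9904. Between neighbours in this order only the ranges of Hcrtr1 (2.23 to 7.08 FPKM over both diets) and Hcrtr2 (1.93 to 4.46 FPKM) overlapped, and within each rat Hcrtr1 was still the higher of the pair.

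None of the 5 genes was called different between the diets, and the members did not share a direction. Mean levels of both peptide precursors were lower on fructose and those of both orexin receptors were higher. Of 5 members tested, limma called 0 at an adjusted p under 0.05, where it called 466 of 11837 genes tested (3.94%). At an unadjusted p under 0.05 limma gave 3 of 5, against 19.2% of all genes. Hcrtr1 and Hcrtr2 were the 2 on the higher side, where 8.59% of all genes lay, and Pmch was the 1 on the lower side, where 10.6% lay. The exact permutation test, over 1716 ways to split the animals, gave 2 of 5 at that level (Hcrtr1 and Hcrtr2), against 18.8% of all genes. After adjustment it called 0 of 5 members and also 0 of all 11837 genes. The smallest adjusted p of any gene was 0.0663, so this 0 says nothing of the members in particular. In 0 of the 5 members did the diets separate without overlap, as they did in 1.61% of genes.

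Hcrt stood at 254, 742, 314, 842, 217 and 792 FPKM in fructose rats 1 to 6. In chow rats 1 to 7 it stood at 1012, 661, 703, 770, 441, 683 and 632 FPKM. The fructose rats lay in 2 sets of 3, with rats 1, 3 and 5 below every chow rat and rats 2, 4 and 6 inside the chow range. The means were 527 ± 294 FPKM on fructose (SD, n = 6) and 700.4 ± 171 FPKM on chow (SD, n = 7). The log2 fold change was -0.59 ± 0.32 (SE, limma adjusted p = 0.331), with a 95% interval from -1.27 to 0.08, so that a lower level by more than 2-fold and no difference at all both lay inside it. The exact two-sided permutation p was 0.138.

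Pmch stood at 1974, 4957, 2489, 5669, 1345 and 4527 FPKM in fructose rats 1 to 6, against 7136, 4902, 5586, 4766, 3607, 5170 and 4581 FPKM in chow rats 1 to 7. Fructose rats 1, 3 and 5 were again below every chow rat, and 5 of 6 fructose rats were below the chow mean. The means were 3494 ± 1782 FPKM on fructose (SD, n = 6) and 5107 ± 1083 FPKM on chow (SD, n = 7), with a difference of -0.71 ± 0.29 on the log2 scale (SE, limma, adjusted p = 0.197 and unadjusted p = 0.0283). The 95% interval ran from -1.33 to -0.09, and the exact permutation p was 0.0659. In RefSeq the span of Pmch overlaps that of Parpbp, and no source used here says whether reads were counted by strand, so reads from the pair may not be fully told apart. Parpbp averaged 1.76 FPKM on fructose and 2.89 FPKM on chow.

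Hcrtr1 stood at 5.53, 5.89, 5.29, 7.08, 4.62 and 6.03 FPKM in fructose rats 1 to 6, against 5.62, 3.91, 4.30, 4.10, 5.08, 4.78 and 2.23 FPKM in chow rats 1 to 7. All 6 fructose rats lay above the chow mean and 3 lay above every chow rat. The means were 5.74 ± 0.825 FPKM on fructose and 4.29 ± 1.08 FPKM on chow (SD, n = 6 and 7), with a difference of 0.41 ± 0.16 on the log2 scale (SE, limma, adjusted p = 0.161, exact permutation p = 0.0175 unadjusted). The 95% interval was 0.08 to 0.74. Chow rat 7 was the lowest by a wide gap, and without it the log2 fold change was 0.28 (limma adjusted p = 0.1997, with a range of 0.0813 to 0.296 over all alternatives).

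Hcrtr2 stood at 3.06, 3.95, 3.69, 4.46, 2.68 and 2.75 FPKM in fructose rats 1 to 6, against 3.68, 2.52, 2.65, 1.93, 2.44, 3.17 and 1.93 FPKM in chow rats 1 to 7. All 6 fructose rats were above the chow mean, while 5 of 7 chow rats lay below all fructose rats. The means were 3.43 ± 0.716 FPKM on fructose and 2.62 ± 0.636 FPKM on chow (SD, n = 6 and 7), with a difference of 0.34 ± 0.15 on the log2 scale (SE, limma, adjusted p = 0.218, exact permutation p = 0.0490 unadjusted). The 95% interval was 0.03 to 0.65.

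Mchr1 stood at 10.03, 10.57, 10.64, 13.9, 9.10 and 9.55 FPKM in fructose rats 1 to 6, against 12.1, 12.96, 8.82, 13.04, 10.56, 12.2 and 9.82 FPKM in chow rats 1 to 7. The groups overlapped over almost their whole range, and only fructose rat 4 exceeded every chow rat. The means were 10.6 ± 1.71 FPKM on fructose and 11.4 ± 1.64 FPKM on chow (SD, n = 6 and 7), with a difference of -0.09 ± 0.11 on the log2 scale (SE, limma, adjusted p = 0.719, exact permutation p = 0.433). The 95% interval of -0.32 to 0.14 leaves out any difference as large as 1.5-fold.

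**Figure D1:**
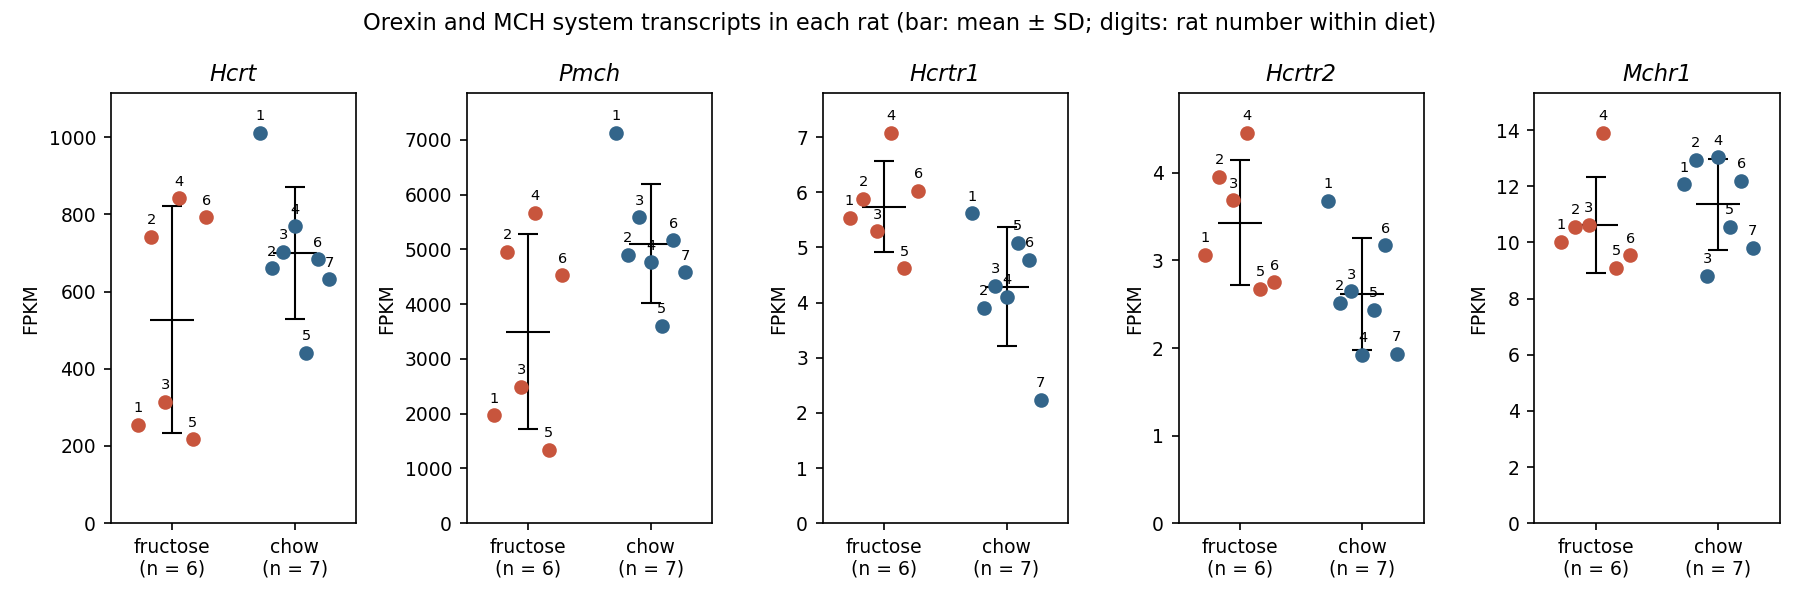
FPKM of the 5 genes in each rat, fructose left and chow right, with the mean ± SD as a bar and the rat's number within its diet beside each point. For Hcrt and Pmch, fructose rats 1, 3 and 5 sit below all chow rats while rats 2, 4 and 6 sit within the chow range, and for both orexin receptors all 6 fructose rats sit above the chow mean.

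In fructose rats the precursors varied more between rats than the receptors, whereas in chow rats the spread of Hcrt, Pmch, Hcrtr1 and Hcrtr2 was much alike. Taken as the SD of log2(FPKM + 0.5) around the mean of a rat's own diet, Hcrt had 0.66 and Pmch 0.60, against a median of 0.16 over all genes tested. Of all genes tested, 98.6% had a smaller SD than Hcrt and 98.1% a smaller SD than Pmch. Hcrtr1, Hcrtr2 and Mchr1 had 0.31, 0.28 and 0.21, larger than in 84.3%, 80.4% and 66.1% of genes. In fructose rats alone 99.4% of genes had a smaller SD than Hcrt and 99.2% a smaller SD than Pmch. In chow rats alone these shares were 90.0% for Hcrt and 84.3% for Pmch, below the 91.4% for Hcrtr1. For Hcrt the SD was 0.90 in fructose rats and 0.36 in chow rats, and for Pmch 0.84 in fructose rats and 0.30 in chow rats. For Hcrtr1 it was 0.19 in fructose rats and 0.38 in chow rats, the widest of the 5 members on chow. It was 0.26 in fructose rats and 0.29 in chow rats for Hcrtr2, and 0.21 in both diets for Mchr1. From the lowest to the highest rat Hcrt spanned 3.88-fold on fructose and 2.29-fold on chow, Pmch 4.21-fold on fructose and 1.98-fold on chow, and Hcrtr1 1.53-fold on fructose and 2.51-fold on chow. Whether the spread differs between diets was not tested. In a whole-tissue sample fewer cells of a type and less RNA per cell cannot be told apart.

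Hcrt and Pmch kept nearly the same proportion to each other in every rat although the level of each varied about 4-fold or 2-fold within a diet. Pmch was 5.71 to 7.93 times Hcrt in fructose rats and 6.19 to 8.18 times Hcrt in chow rats. The 3 fructose rats with little Hcrt (rats 1, 3 and 5) had ratios of 7.76, 7.93 and 6.20, and the other 3 (rats 2, 4 and 6) had 6.68, 6.73 and 5.71. The log2 difference, Hcrt minus Pmch, was -2.76 ± 0.18 on fructose and -2.88 ± 0.13 on chow (SD, n = 6 and 7). It differed between diets by 0.11, less than the spread between rats (exact two-sided permutation p = 0.213, adjusted p = 0.427 over 2 such differences). Hcrtr1 minus Hcrtr2 was 0.68 ± 0.19 on fructose and 0.61 ± 0.26 on chow, a difference of 0.07 (exact permutation p = 0.601, adjusted p = 0.601). It was -0.0036 without chow rat 7.

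Over the 7 chow rats Hcrt and Pmch correlated with Pearson r = 0.94 (exact permutation p = 0.0185, adjusted p = 0.0738 over 20 relations, 10 pairs of members in 2 diets) and Spearman rho = 0.79 (exact permutation p = 0.0480, adjusted p = 0.160). Without chow rats 1 and 5, the farthest from the median of Hcrt, r was 0.22 over 5 rats. The high r in chow thus needed the range that those 2 rats add. Hcrt spanned only 632 to 770 FPKM in the 5 rats left, too narrow a range to judge the relation. With 1 chow rat left out r was 0.868 to 0.987. Over the 6 fructose rats r was 0.98 (exact permutation p = 0.00278, adjusted p = 0.0278) and rho 0.94 (exact permutation p = 0.0167, adjusted p = 0.111). Since these rats fell into 2 sets of 3, that r mostly measures the gap between the sets, and within a set there were too few rats to test the relation. Without fructose rats 1 and 5 it was 0.98 over 4 rats.

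**Figure D2:**
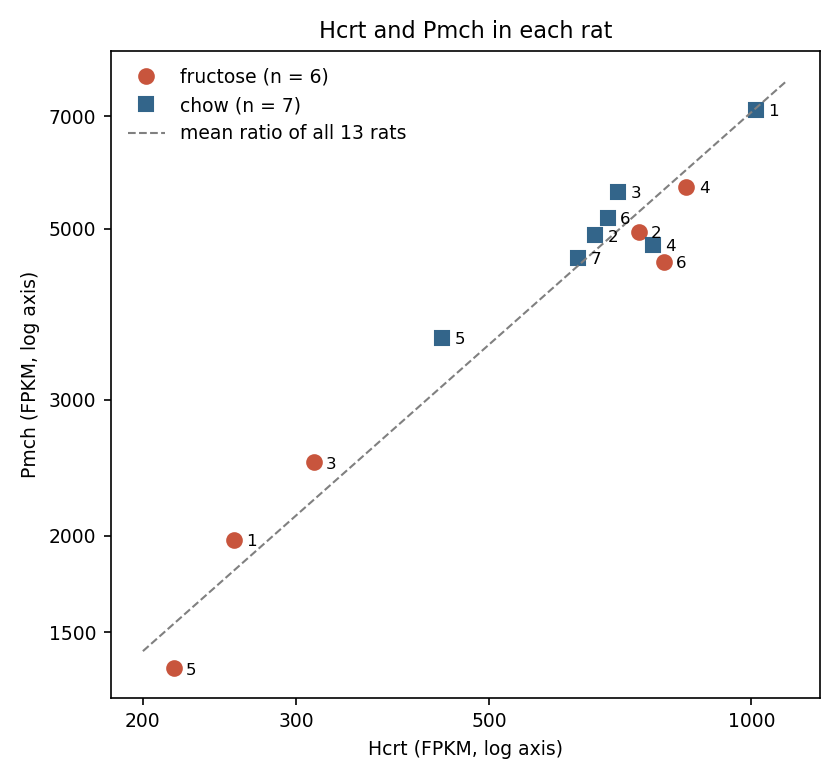
Pmch against Hcrt in FPKM, both on log axes, 1 point per rat with its number within its diet (circles fructose, squares chow). The dashed line marks the mean ratio over all rats, and every rat lies close to it, including the 3 fructose rats at the lower left and chow rats 1 and 5 at the ends of the chow range.

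Among the receptors, in fructose rats Hcrtr2 and Mchr1 correlated with each other (r = 0.89, exact permutation p = 0.00278, adjusted p = 0.0278, and rho = 0.94, exact permutation p = 0.0167, adjusted p = 0.111), and r was 0.96 without the 2 rats farthest from the median of Hcrtr2. In chow rats the same pair had r = 0.15 (exact permutation p = 0.743, adjusted p = 0.782) and rho = -0.18, and the difference between diets was not tested. Hcrtr1 with Hcrtr2 had r = 0.67 in fructose rats (exact permutation p = 0.144, adjusted p = 0.289) and r = 0.72 in chow rats (exact permutation p = 0.0526, adjusted p = 0.175), and without the 2 farthest rats r was -0.34 in fructose rats and 0.41 in chow rats. With all rats kept, precursor and receptor had a higher r in fructose rats than in chow rats. The exception was Pmch with Hcrtr2 (0.64 in fructose and 0.66 in chow). The difference between diets was not tested for any of these pairs. In fructose rats Hcrt had r = 0.85 with Hcrtr1 and 0.51 with Hcrtr2, and Pmch had r = 0.64 with Mchr1 (exact permutation p = 0.0111, 0.243 and 0.144, adjusted p = 0.0556, 0.405 and 0.289). Pmch with Hcrtr1 had r = 0.90 there (exact permutation p = 0.0111, adjusted p = 0.0556). The gap between the 2 sets of fructose rats enters each of these values, and without fructose rats 1 and 5 they were 0.79, 0.0051, 0.40 and 0.85 over 4 rats. In chow rats Hcrt had r = 0.18 with Hcrtr1 and 0.44 with Hcrtr2, and Pmch had r = 0.13 with Mchr1 (exact permutation p = 0.611, 0.307 and 0.790, adjusted p = 0.679, 0.438 and 0.790). Pmch with Hcrtr1 had r = 0.29 in chow rats (exact permutation p = 0.462, adjusted p = 0.601). Without chow rats 1 and 5 these 4 values were 0.60, -0.13, -0.40 and 0.69 over 5 rats. With the 2 farthest rats of each diet left out, r was not always higher on fructose. Hcrt with Mchr1 then had 0.23 in fructose rats and 0.32 in chow rats, and Pmch with Hcrtr2 0.22 and 0.73.

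The genes most like Hcrt and Pmch were largely neuropeptide genes. Likeness was Pearson r of log2(FPKM + 0.5) over all 13 rats after the mean of each diet was taken away, given as a description of libraries that share tissue and dissection. The gap between low and high fructose rats in Hcrt and Pmch enters every diet-centred r with these precursors. Closest to Hcrt were Pmch (r = 0.97), Pdyn (0.96), Nts (0.95), Nucb2 (0.95) and Ecel1 (0.93). Closest to Pmch were Nts (0.97), Hcrt (0.97), Rcan1 (0.94), Nucb2 (0.93) and Pdyn (0.92). Pdyn encodes prodynorphin, which orexin neurons are known to release together with orexin. Nts encodes neurotensin, a peptide of other lateral hypothalamic neurons, Nucb2 the precursor of the satiety peptide nesfatin-1, Ecel1 a neuronal endopeptidase-like protein and Rcan1 an inhibitor of calcineurin.

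Pdyn stood at 14.7, 38.7, 22.5, 52.4, 15.04 and 48.7 FPKM in fructose rats 1 to 6, and at 61.4, 29.6, 40.5, 46.9, 23.6, 30.1 and 31.4 FPKM in chow rats 1 to 7. Its low rats were those of Hcrt. Nts ranged from 16.7 to 39.9 FPKM on fructose and from 22.0 to 41.0 FPKM on chow, lowest in fructose rat 5 and in chow rat 5. None of these genes was called between diets, with log2 fold changes of -0.35 ± 0.31 for Pdyn, -0.17 ± 0.20 for Nts, -0.10 ± 0.15 for Nucb2 and -0.42 ± 0.31 for Ecel1 (SE, limma adjusted p = 0.606, 0.722, 0.793 and 0.495). Rcan1 varied little, with 34.6 to 42.6 FPKM on fructose and 35.8 to 39.7 FPKM on chow.

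The receptors had other genes beside them. Hcrtr1 was closest to Tmem200a (r = 0.96), Mpped1 (0.91), Thra (0.90), Bbs10 (0.89) and Sema6c (0.88), and Hcrtr2 to Tac1 (0.91), RGD1563348 (0.90), Dcaf12l1 (0.88), Synpr (0.87) and Lyrm9 (0.86). Mchr1 was closest to Ccl27 (r = 0.88), Tfap4 (0.87), Prorsd1 (0.87), Exosc4 (0.85) and Rnps1 (0.84). Tac1 encodes the precursor of substance P and Thra a thyroid hormone receptor.

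Levels of hypothalamic marker genes ran parallel to Hcrt from rat to rat, although 0 of 52 relations of Hcrt and Pmch with 13 marker lists in 2 diets had an adjusted p under 0.05 by the exact permutation test. The list of 11 (Avp, Oxt, Agrp, Pomc, Ghrh, Trh, Sst, Cartpt, Nkx2-1, Sim1 and Nr5a1) had none at 0, and the lowest was Agrp with a mean of 0.606 FPKM. Their summed FPKM ranged from 206 to 1089 on fructose and from 274 to 2804 on chow. The mean log2 level of the list was 2.13, 4.01, 2.73, 4.60, 2.14 and 4.13 in fructose rats 1 to 6 and 4.69, 3.06, 3.78, 4.62, 2.54, 2.80 and 3.53 in chow rats 1 to 7. Among fructose rats it was lowest in rats 1, 3 and 5, those with the least Hcrt and Pmch. Among chow rats it was lowest in rat 5, which had the least of both there, and highest in rats 1 and 4. The levels of all 11 markers correlated positively with Hcrt in fructose rats and those of 10 of 11 did in chow rats. In fructose rats, which lay in 2 sets of 3, the list's level had r = 0.99 with Hcrt and 0.97 with Pmch (exact permutation p = 0.00278 and 0.00972, adjusted p = 0.144 and 0.169). With 6 rats no p can be under 0.00139, which is too large for a single relation to pass adjustment over 52. In chow rats the list's level had r = 0.83 with Hcrt (exact permutation p = 0.00655, adjusted p = 0.169 over the 52 relations), rho = 0.86 (exact permutation p = 0.0238, adjusted p = 0.347) and r = 0.72 without the 2 farthest rats. With Pmch in chow rats it had r = 0.66 (exact permutation p = 0.101, adjusted p = 0.406), and r = -0.18 without the 2 farthest rats. Between diets the list did not differ beyond the spread between rats (3.29 ± 1.09 on fructose and 3.58 ± 0.85 on chow, SD, exact permutation p = 0.590).

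The list of 12 thalamus markers (Prkcd, Calb2, Gbx2, Tcf7l2, Slc17a6, Lhx2, Rora, Zic1, Zic4, Rgs16, Synpo2 and Pdlim3), some of which the hypothalamus also expresses, ran the other way. Its mean log2 level was 4.17, 3.01, 4.23, 3.51, 4.45 and 3.57 in fructose rats 1 to 6, so that the rats with the least Hcrt had the most of it, and 4.07 to 5.07 in chow rats. Summed FPKM was 539 to 843 on fructose and 573 to 1134 on chow, no marker was at 0, and 2 of 12 markers correlated positively with Hcrt in either diet. In chow rats r with Hcrt was -0.51 (exact permutation p = 0.213, adjusted p = 0.553). Between diets the thalamus list was lower on fructose (3.82 ± 0.55) than on chow (4.63 ± 0.34), with an exact permutation p of 0.00699. Of its markers limma called 1 of 12 higher and 5 lower. Of all genes tested it called 1.66% higher and 2.27% lower on fructose, the shares beside which the counts of each marker list stand. Of the markers of midbrain dopamine neurons (Slc6a3, Th, Ddc, Slc18a2, Chrna6, Chrnb3, Nr4a2, Pitx3, Foxa1 and Aldh1a1) 10 of 10 rose, with a summed FPKM of 184 to 550 on fructose and 68.5 to 99.4 on chow (exact permutation p = 0.000583, the smallest that the splits allow). Of the blood markers 4 of 4 rose (494 to 2214 on fructose and 238 to 615 on chow), as did 4 of 4 tested markers of the meninges (24.1 to 68.6 on fructose and 16.5 to 28.1 on chow), with an exact permutation p of 0.00117 for each list. The lists of astrocytes (6.79 on fructose and 6.49 on chow) and microglia (3.99 and 3.84) had higher mean log2 levels on fructose, and that of neurons (7.90 and 8.10) a lower one (exact permutation p = 0.00233, 0.0204 and 0.00466). Limma also called 2 of 7 striatum markers, 1 of 4 tested markers of cortex and hippocampus and 2 of 4 astrocyte markers higher. No marker of hypothalamus, neurons, oligodendrocytes, microglia, choroid plexus or pituitary was called. The permutation p-values of the lists between diets were not adjusted over the lists. The part of any of these lists in the levels of Hcrt, Pmch or their receptors was not tested.

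**Figure D3:**
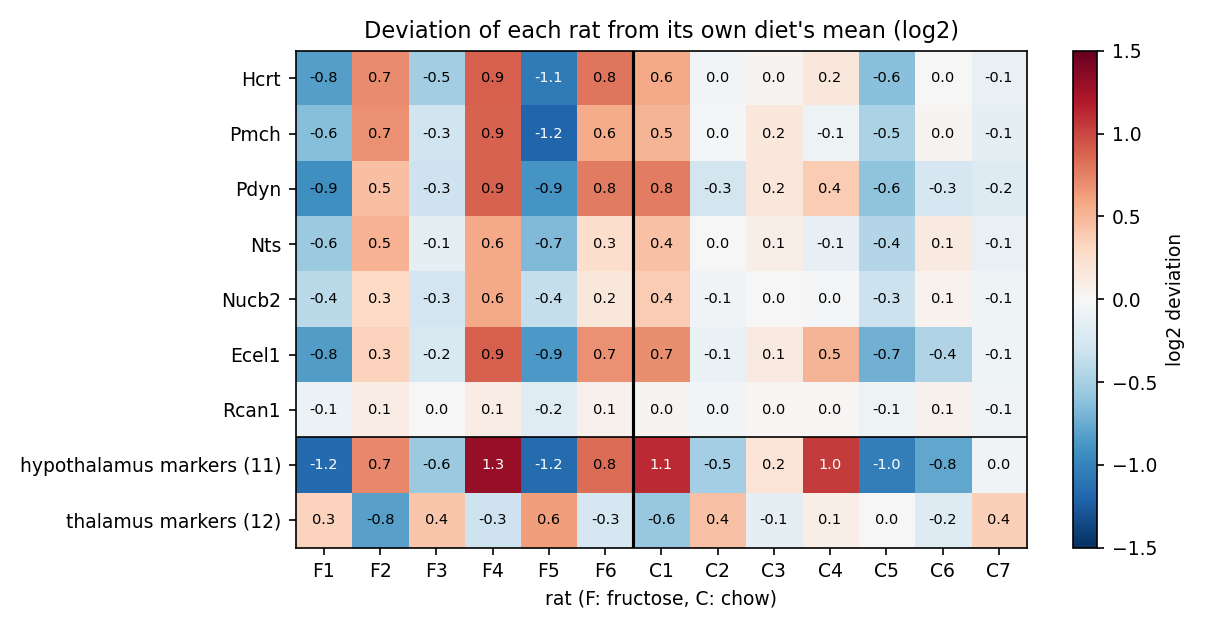
Each cell gives a rat's log2 deviation from the mean of its own diet, with fructose rats (F) left and chow rats (C) right, for Hcrt, Pmch, the genes most like them and, under the line, the mean level of the hypothalamus and thalamus marker lists. Fructose rats 1, 3 and 5 and chow rat 5 are low for Hcrt, Pmch, Pdyn, Nts, Nucb2, Ecel1 and the hypothalamus list, and the thalamus list is above its diet's mean in fructose rats 1, 3 and 5.

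**Figure D4:**
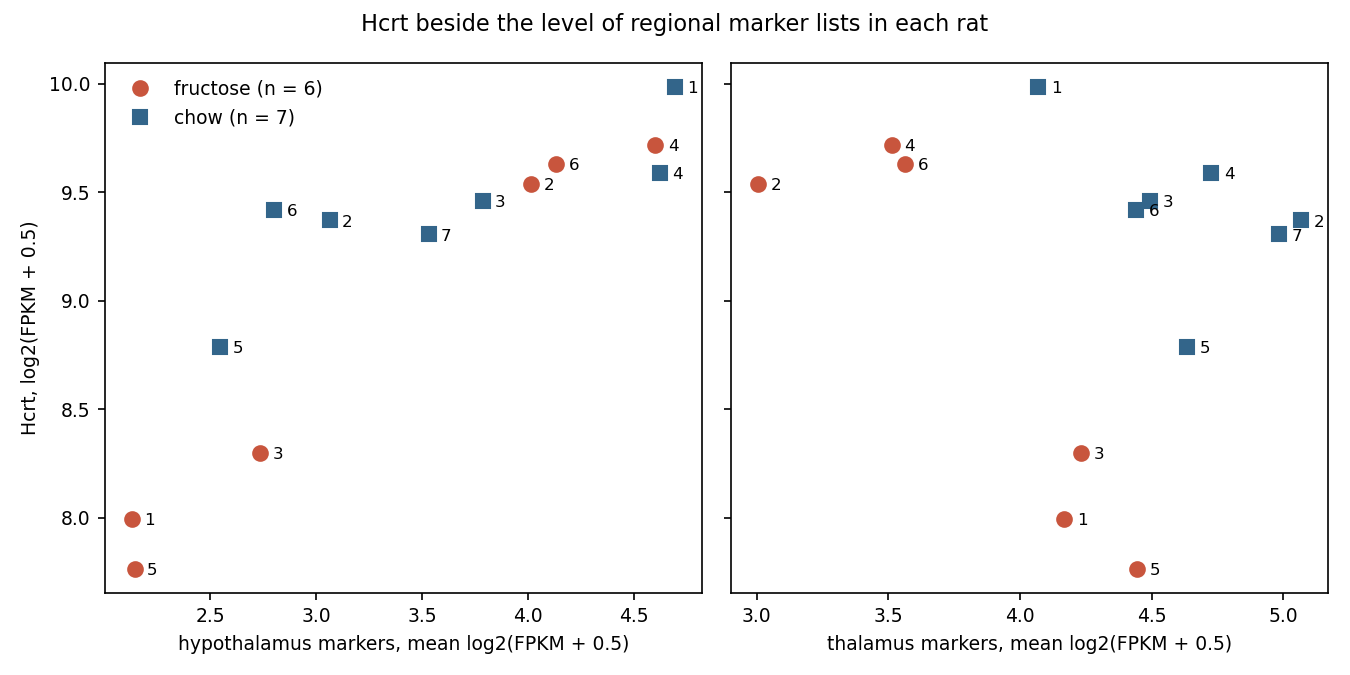
Level of Hcrt, as log2(FPKM + 0.5), against the mean log2 level of the hypothalamus markers (left) and the thalamus markers (right), 1 point per rat with its number within its diet. Fructose rats 1, 3 and 5 have the lowest Hcrt, the hypothalamus level being 2.13 to 2.73 there and 4.01 to 4.60 in the other fructose rats.

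Genes of the wider pathway were read from 7 lists, against the 1.66% of all genes that limma called higher and the 2.27% called lower on fructose, and against a median log2 fold change of 0.00085 over all genes tested. In the list of prohormone processing, 1 of 6 tested genes fell and 5 did not pass (median -0.08). The one that fell was Pcsk2, a convertase that cleaves peptide precursors, with 85.0 ± 13.8 FPKM on fructose and 129.6 ± 31.8 FPKM on chow (-0.59 ± 0.14, SE, limma adjusted p = 0.0389). Pcsk1, the partner convertase, had a log2 fold change of -0.15 ± 0.11, and Cpe, carboxypeptidase E, the most abundant of the list, -0.10 ± 0.07 (limma adjusted p = 0.517 and 0.446). Over diet-centred values Pcsk2 and Cpe ran against Hcrt (r = -0.48 and -0.75), while Pcsk1 followed it (0.70). The call of Pcsk2 was lost without fructose rat 2, 4 or 6 or chow rat 2, 3, 4, 5 or 7, with a limma adjusted p of 0.0538 to 0.0911, in a range of 0.0158 to 0.0911 over all rats left out.

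Of 7 tested genes known from orexin neurons 1 fell and 6 did not pass (median -0.35), with 1 further gene, Rfx4, unmatched. Vgf, a secreted granule protein, had 33.8 ± 2.03 FPKM on fructose and 43.5 ± 6.22 FPKM on chow (-0.35 ± 0.08, SE, limma adjusted p = 0.0346), and its diets did not overlap. Vgf did not follow Hcrt from rat to rat (r = -0.16 over diet-centred values), whereas Pdyn and Scg2, secretogranin II, did (0.96 and 0.82). Nptx2, a synaptic pentraxin, and Lhx9, a transcription factor of the developing orexin neuron, had log2 fold changes of -0.50 ± 0.16 and -0.73 ± 0.35 without a call (limma adjusted p = 0.0972 and 0.280), and Lhx9 ran against Hcrt (r = -0.73). So did Slc17a6, which is also among the thalamus markers (r = -0.80), while Nptx2 and Igfbp3 had r = 0.32 and -0.32. The call of Vgf was lost without fructose rat 2, 3, 4 or 6 or chow rat 2, 4 or 7, with a limma adjusted p of 0.0557 to 0.0865 there and from 0.0197 over all rats left out.

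Of 8 genes known from MCH neurons 1 rose and 7 did not pass (median 0.08). Tac1 had 75.4 ± 14.7 FPKM on fructose and 48.5 ± 13.2 FPKM on chow (0.65 ± 0.17, SE, limma adjusted p = 0.0464), with 5 of 6 fructose rats above all chow rats. It was lost without chow rat 2, 3, 4, 5 or 7 or fructose rat 1, 2, 3, 4 or 6, with a limma adjusted p of 0.0607 to 0.110, and from 0.0189 over all rats left out. Parpbp had a log2 fold change of -0.62 ± 0.22, Tacr3, the neurokinin B receptor, 0.23 ± 0.20, and Cartpt, the precursor of the feeding-related CART peptide, -0.16 ± 0.27 (limma adjusted p = 0.130, 0.575 and 0.812). Parpbp followed Pmch with r = 0.89 over diet-centred values and Cartpt with 0.84, the highest of the list, while Otx1 had the lowest with -0.22. For Otx1 the sign differed by diet, with r = -0.49 in fructose rats and 0.80 in chow rats. As given above, the spans of Parpbp and Pmch overlap, so reads from the pair may not be fully told apart in these values of Parpbp.

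Of the other peptides of the lateral hypothalamus 6 were tested, and limma called 0, with 0 at an unadjusted p under 0.05 (median -0.12). Gal, galanin, Trh, thyrotropin-releasing hormone, Npvf, the precursor of RFamide-related peptides, and Penk, proenkephalin, had log2 fold changes of -0.42 ± 0.32, -0.65 ± 0.53, 0.41 ± 0.40 and 0.08 ± 0.22 (SE, limma adjusted p = 0.522, 0.555, 0.641 and 0.888). Gal and Trh followed Hcrt from rat to rat, with r = 0.92 and 0.85 over diet-centred values. Trh, like Cartpt, is also among the hypothalamus markers given above, so its values are the same measurement and not a further one. Qrfp was listed at 0 in every rat.

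Among 11 G proteins and effectors of the receptors 2 fell and 9 did not pass (median -0.11). Plcb4, a phospholipase C that Gq activates, had 31.6 ± 9.37 FPKM on fructose and 54.7 ± 14.0 FPKM on chow (-0.79 ± 0.20, SE, limma adjusted p = 0.0394). Kcnj3, a subunit of the potassium channel that Gi-coupled receptors open, had 12.7 ± 2.81 FPKM on fructose and 19.1 ± 2.95 FPKM on chow (-0.60 ± 0.15, limma adjusted p = 0.0383), and its diets did not overlap. Over diet-centred values Plcb4 and Kcnj3 ran against Hcrt (r = -0.80 and -0.52), the sense in which the thalamus markers ran. A link with those markers was not tested. Gnao1 and Gnai2, alpha subunits of the Go and Gi class, had log2 fold changes of -0.21 ± 0.08 and 0.09 ± 0.06 without a call (limma adjusted p = 0.164 and 0.456). Their r with Hcrt was -0.24 and 0.67. Plcb4 was lost without fructose rat 2, 4 or 6 or chow rat 2, 3, 4, 5 or 7 (limma adjusted p 0.0529 to 0.0972, from 0.0098 over all rats left out), and Kcnj3 without fructose rat 4 or 6 or chow rat 2, 3, 4, 5 or 7 (0.0594 to 0.0838, from 0.0225).

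Of 6 tested genes of the primary cilium limma called 0, with 1, Sstr3, at an unadjusted p under 0.05 (median 0.05). Sstr3, a somatostatin receptor of the neuronal cilium, had a log2 fold change of 0.22 ± 0.10, Arl13b, a ciliary GTPase, 0.15 ± 0.08, Bbs4, a subunit of the complex that carries receptors in cilia, 0.05 ± 0.08, and Kif3a, a motor of ciliary transport, 0.04 ± 0.08 (SE, limma adjusted p = 0.240, 0.319, 0.782 and 0.825).

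In the list of arousal neurons that receive orexin 4 of 5 tested genes rose and 1 did not pass (median 1.52). All 4 are also in the list of midbrain dopamine neurons given above, so their rise is the same measurement and not a further one. They were Slc6a3, the dopamine transporter, by 5.39 ± 0.43, Th, tyrosine hydroxylase, by 2.40 ± 0.24, Slc18a2, the vesicular monoamine transporter, by 1.52 ± 0.16, and Ddc, aromatic amino acid decarboxylase, by 1.26 ± 0.16 on the log2 scale (SE, limma adjusted p = 3.12e-05, 0.000189, 0.000376 and 0.00104). For all 4 the 6 fructose rats lay above the 7 chow rats. Hdc, which makes histamine in the tuberomammillary neurons that carry Hcrtr2, had 11.3 ± 6.40 FPKM on fructose and 5.57 ± 1.86 FPKM on chow (0.84 ± 0.31, limma adjusted p = 0.146). Chat, Slc6a4 and Dbh, of cholinergic, serotonin and noradrenaline neurons, averaged 0.506, 0.0980 and 0.0576 FPKM on fructose and 0.406, 0.0558 and 0.0249 FPKM on chow, under the filter.

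**Figure D5:**
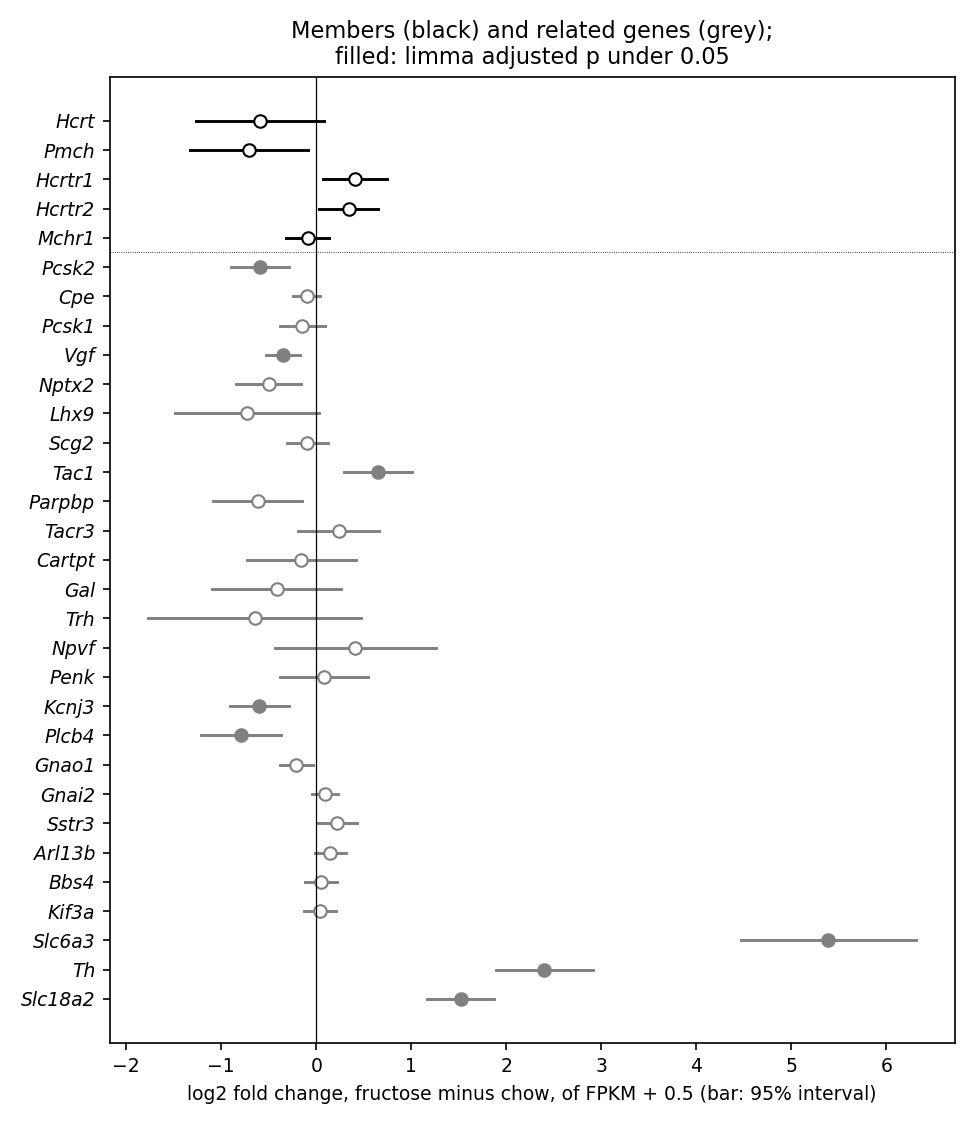
Log2 fold change (fructose minus chow) with its 95% interval, for the 5 members in black above the dotted line and for the genes of the 7 lists that the text names by rule in grey. Filled points passed limma's adjusted p of 0.05; none of the members did, and Slc6a3, Th and Slc18a2 lie farthest to the right.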

How the data were processed

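Hypothalamic mRNA libraries, made from 1 sample per rat, are represented by 1 deposited table with a column per rat. The authors deposited FPKM, in which fragments are scaled to transcript length and to the library's mapped fragments. STAR 2.3.0e, Cufflinks 2.1.1, Cuffdiff and build rn5 are named in the submitters' processing notes; no source used here gives their settings or how libraries were scaled to each other. Each column was assigned by its rat's title, and rats were grouped by the diet label. The rats are separate animals housed in pairs; cage, sex, batch and injection per rat are not given, so no covariate was entered. Total FPKM was 556902 to 589821 on fructose and 565653 to 608058 on chow, with no identical columns. Read depth is unknown: the spacing of low values places 1 read at 0.871 to 1.24 times its value in chow rat 1, a rough figure. Precision rests on the spread between rats.

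Rows whose mean reached 0.5 FPKM were tested as log2(FPKM + 0.5) with limma 3.58.1 in R 4.3.3 (two-sided, intensity trend, Benjamini-Hochberg over 11837 genes, called at an adjusted p under 0.05), checked on simulated data. This scale understates changes of low genes. Single values were compared by exact two-sided permutation over 1716 splits, correlations by permuting pairings within a diet. A marker list's level is the mean of log2(FPKM + 0.5) over its matched rows. Members and lists were chosen with earlier results of these data known, and relations with marker lists were added after values were seen. Per list, the 3 genes with the smallest p and the most abundant one are named, with the 5 genes most like each member. Other named genes (Pdyn, Nts, Ddc, Hdc and those under the filter among them) were singled out after their values were seen.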

Additional observations from a re-analysis of the deposited data

Results flagged for a closer look

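In 14 sets of values (5 genes and 2 within-rat differences in each diet), 2 had a rat set apart from the rest of its diet by a gap that is large against the range, as chance gives in about 1 in 20 sets. Mchr1 was 13.9 FPKM in fructose rat 4, where the gap was 0.634 of the range, against a limit of 0.625 for 6 rats. Hcrtr1 was 2.23 FPKM in chow rat 7, with a gap of 0.593 against a limit of 0.568 for 7 rats.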

How the results depend on the processing

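Under all 22 alternatives each of the 5 members kept the direction of its change and none was called. With 1 rat left out the log2 fold change ran from -0.77 to -0.38 for Hcrt, from -0.88 to -0.47 for Pmch, from 0.28 to 0.47 for Hcrtr1, from 0.27 to 0.41 for Hcrtr2 and from -0.17 to -0.05 for Mchr1. The count of genes called was 466. It was 308 with no filter on low values (rows at 0 in every rat left out), 1019 with array weights and 83 to 857 with 1 rat left out, and the exact permutation test called 0 after adjustment, with 2223 at an unadjusted p under 0.05. The causes were not tested. Hcrt with Pmch had r from 0.868 to 0.987 in chow rats and from 0.975 to 0.988 in fructose rats with 1 rat left out. Without the 2 rats farthest from the median of Hcrt it was 0.217 in chow rats and 0.977 in fructose rats (exact permutation p = 0.742 over 5 rats and 0.0833 over 4 rats). Hcrtr1 minus Hcrtr2 ranged from -0.0036 to 0.12 between diets with 1 rat left out. Alternatives were computed for 33 further genes, which include every gene outside the members with a printed log2 fold change. Of these, Cartpt changed direction without fructose rat 5 (-0.31 to 0.084 with 1 rat left out) and Penk without fructose rat 4 (-0.046 to 0.26). None of their calls was lost with median-ratio scaling or quantile normalization. Pcsk2, Tac1, Kcnj3 and Plcb4 lost theirs with no filter (limma adjusted p = 0.0519, 0.0620, 0.0507 and 0.0544), and Tac1 with robust empirical Bayes (0.0520), while Hdc was called with array weights (0.0479). No paired analysis was possible because the rats carry no number shared between diets. The read depth behind each value is unknown.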
